A study of Rattus norvegicus with 7 samples.

Results

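Nuclei of the thick ascending limb that held transcripts of Cldn10 and none of Cldn16 were taken from single-nucleus RNA libraries of rat kidney. A barcode had to have at least 200 genes, at most 10000 UMIs (unique molecular identifiers, one per captured RNA molecule) and at most 5% of its UMIs from mitochondrial genes. It then had to carry Slc12a1 at 80 or more per 10000 UMIs and at 5 or more UMIs, Cldn10 at 1 or more UMIs, Cldn16 at 0, and Nos1 and Pappa2, markers of the macula densa, at 2 UMIs or fewer together. The nuclei were thus chosen by measured counts of these genes, so within them the 5 genes are described without a test. The rule found 1453 nuclei among 30746 retained nuclei (4.73%) and 37048 deposited barcodes. They were 36.4% of the 3989 nuclei that met the Slc12a1, Nos1 and Pappa2 conditions, called thick limb nuclei here. The other thick limb nuclei carried Cldn16 without Cldn10 (290), both (209) or neither (2037). The chosen nuclei are called Cldn10-only nuclei, and the others Cldn16-only, double-positive and double-negative nuclei.

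The libraries came from archived kidneys of 4-week-old HSRA rats, a line in which some animals are born with a single kidney (unilateral renal agenesis) and their controls with the usual pair. By title, 3 libraries were from 1-kidney and 4 from 2-kidney animals, which matches the 3 HSRA-S and 4 HSRA-C rats of the protocol. No drug or diet is named for either group. Libraries were treated as separate animals, their replicate numbers are names alone, and the p-values measure the spread between these libraries. A central section with cortex and medulla was used, and the sources used here do not give how much of each it held, so a difference between animals and a difference between sections cannot be told apart. The 1-kidney libraries and 2-kidney replicates 1 and 2 carry the set code P1117 in their names, and 2-kidney replicates 3 and 4 the code P1117B, whose meaning the sources used here do not give.

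The thick ascending limb reabsorbs sodium, potassium and chloride through the cotransporter NKCC2, the product of Slc12a1, without letting water follow. The lumen-positive voltage that results drives further cations between the cells, through pores that claudins form in the tight junction. In mouse, Cldn10 makes a pore for sodium and prevails in the medullary part of the limb, whereas Cldn16 with Cldn19 favours calcium and magnesium and is found towards the cortex, each in its own cells of a mosaic. A further isoform of Cldn10 is made by the proximal tubule, and the deposited tables count genes, so the isoforms were not separated.

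The 1-kidney libraries held 64, 107 and 156 Cldn10-only nuclei, and the 2-kidney libraries 204, 328, 267 and 327. Their median UMI counts were 1060.5, 1385 and 1548 in the 1-kidney libraries and 1724, 1735.5, 1488 and 1940 in the 2-kidney libraries (exact permutation p = 0.0857). Summed over the nuclei, the smallest library gave 82132 UMIs and the largest 769972, so that 1 UMI stood for 12.2 and 1.30 CPM (counts scaled to a common library total). Such sums limit what can be seen of weakly transcribed genes, above all in 1-kidney replicate 1. No member barcode occurred in more than 1 library. Cldn10, described without a test, was at 9.98, 8.06 and 7.45 per 10000 UMIs in 1-kidney and 8.33, 7.32, 9.09 and 7.65 in 2-kidney members. Cldn10 was counted once in 868 of the nuclei (59.7%), at 2 UMIs in 358 and at 3 or more in 227. At the Slc12a1 limit, 227 members lay between 80 and 100 per 10000 UMIs and 287 nuclei with the same claudin counts lay just outside, between 60 and 80. Umod, the thick limb's secreted uromodulin, was at 1.91 to 6.83 per 10000 UMIs just inside the limit and at 1.38 to 6.33 just outside.

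Markers of the thick limb were present in the Cldn10-only nuclei. Slc12a1 stood at 169, 132 and 133 per 10000 UMIs in the 1-kidney libraries and at 156, 159, 145 and 144 in the 2-kidney libraries, against 16.5 to 33.3 over all retained nuclei. Umod, which the rule did not use, was at 4.87, 7.80 and 4.09 per 10000 in 1-kidney and 5.94, 5.81, 11.6 and 7.69 in 2-kidney Cldn10-only nuclei, against 0.808 to 1.84 over all retained nuclei.

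A Cldn10 UMI was less specific than a Slc12a1 signal of that size. In nuclei that carried endothelial markers instead of Slc12a1, Cldn10 was at 0.697, 1.53 and 1.58 per 10000 UMIs in 1-kidney and 2.19, 1.05, 1.96 and 1.63 in 2-kidney libraries. In all thick limb nuclei it was at 2.31, 3.11 and 3.14 in 1-kidney and 5.06, 3.73, 4.56 and 4.12 in 2-kidney libraries. In proximal tubule nuclei, taken by the phosphate transporter transcript Slc34a1 at 300 or more per 10000, it reached 2.25, 3.66 and 3.16 in 1-kidney and 6.33, 4.76, 7.57 and 6.10 in 2-kidney libraries, which lay close to or above the thick limb of the same library. At a common depth of 800 UMIs, 15.2% to 31.4% of thick limb nuclei and 7.31% to 16.6% of endothelial nuclei had a Cldn10 UMI. Before thinning these shares were 19.9% to 50.3% and 5.95% to 31.0%, with median depths of 905.5 to 1806 and 788 to 1430 UMIs. A nucleus with a single Cldn10 UMI can therefore not be separated from one that holds free RNA.

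**Figure D1:**
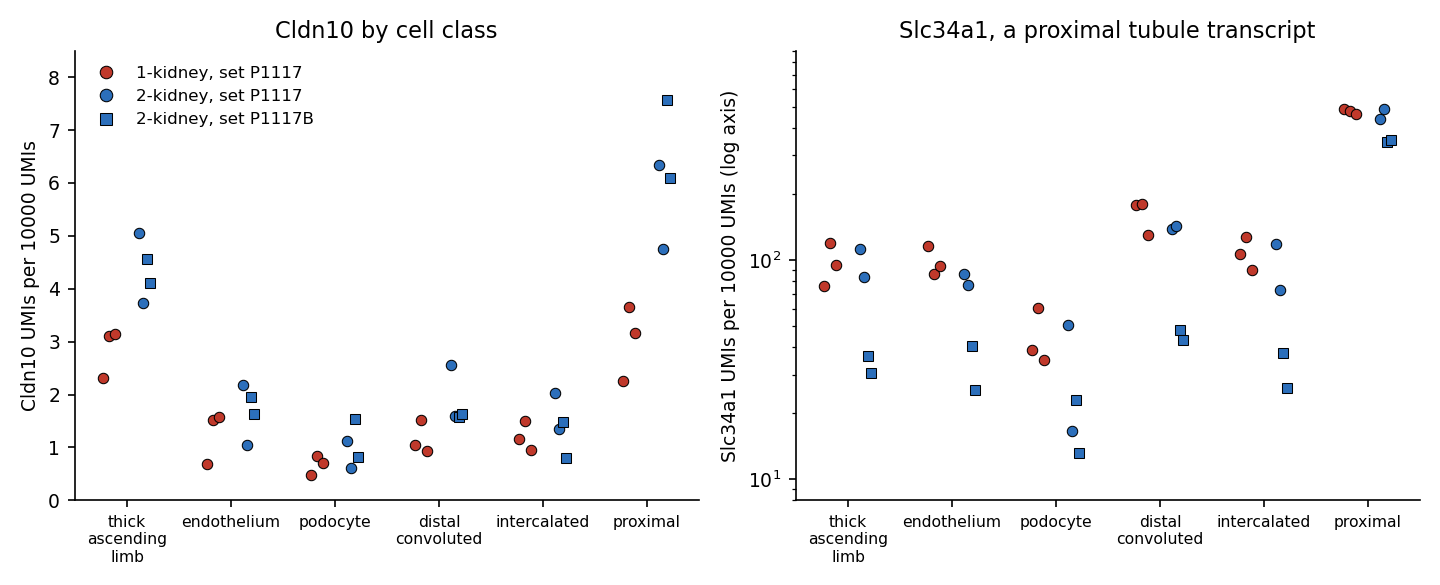
Cldn10 (left) and Slc34a1 (right, log axis) as UMIs per 10000 UMIs, by cell class, with 1 point per library. Circles are set P1117 and squares set P1117B. Cldn10 in proximal tubule nuclei was as high as in thick limb nuclei, and Slc34a1 was found in every class, with 30.4 to 120 per 10000 in the thick limb.

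Proximal transcripts were found in the thick limb nuclei too. Slc34a1 was at 110, 140 and 125 per 10000 UMIs in 1-kidney and 138, 106, 45.7 and 32.7 in 2-kidney Cldn10-only nuclei. Double-negative nuclei had 66.7, 100 and 75.7 in 1-kidney and 84.5, 63.0, 28.5 and 28.5 in 2-kidney libraries. In every library the Cldn10-only nuclei were above the double-negative ones, and set P1117B was the lowest of all. The 15 proximal markers together came to 153, 194 and 176 per 10000 in 1-kidney and 188, 146, 84.0 and 61.4 in 2-kidney Cldn10-only nuclei, and Slc34a1 made up most of that. Podocyte, endothelial, immune and mural marker lists each stayed under 5 per 10000 in these nuclei. Over all retained nuclei they were at 8.04 to 18.4 (podocyte), 4.84 to 7.41 (endothelial), 0.369 to 0.847 (immune) and 0.552 to 1.65 (mural). Immune markers, at 0.468 to 1.04 per 10000, were higher in Cldn10-only than in all retained nuclei of every library. Markers of connecting tubule and principal cells were at 6.57 to 15.1 per 10000, against 22.2 to 31.2 over all retained nuclei. Distal convoluted markers were at 14.98 to 27.6 per 10000 in Cldn10-only nuclei, against 23.2 to 33.7 over all retained nuclei. In Cldn16-only nuclei the distal convoluted markers were at 33.8 to 62.4. The part of distal RNA in these levels was not tested.

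The first comparison asked whether Cldn10-only nuclei made up the same part of the thick limb in both groups. They were 18.7%, 30.1% and 31.1% of thick limb nuclei in the 1-kidney libraries and 44.6%, 40%, 37.6% and 40.7% in the 2-kidney libraries. All 1-kidney values lay below all 2-kidney values. The means were 26.6% ± 6.88 (SD, n = 3) in 1-kidney and 40.7% ± 2.92 (SD, n = 4) in 2-kidney libraries, a difference of -14.1 percentage points (two-sided exact permutation p = 0.0286). That is the smallest p that 3 against 4 libraries allow, and it was 0.0571 after adjustment over the 4 claudin classes. Double-negative nuclei made up 65.9% ± 8.03 (SD, n = 3) in 1-kidney and 45.0% ± 3.07 (SD, n = 4) in 2-kidney libraries, and the groups did not overlap (exact permutation p = 0.0286). The 4 classes together make up all thick limb nuclei of a library. The double-negative share thus mirrors the other shares and is no separate result. Cldn16-only nuclei were 4.97%, 6.18% and 4.39% in 1-kidney and 4.16%, 7.68%, 9.30% and 10.1% in 2-kidney libraries, and the groups overlapped (exact permutation p = 0.171). Double-positive nuclei were 1.17%, 3.37% and 2.20% in 1-kidney and 5.69%, 4.27%, 7.46% and 8.47% in 2-kidney libraries (exact permutation p = 0.0571).

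**Figure D2:**
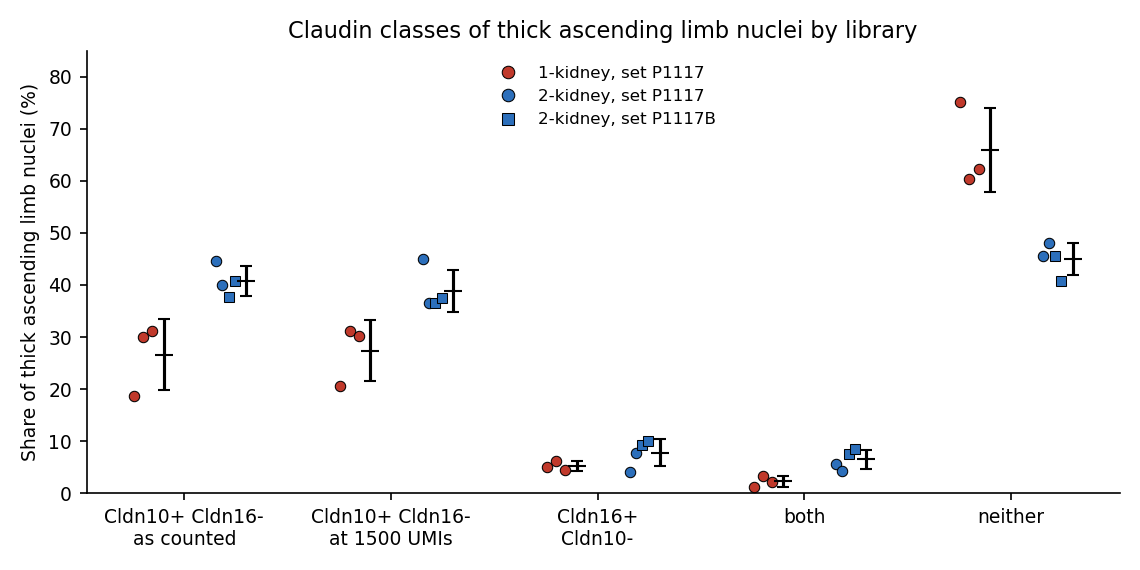
Share of thick ascending limb nuclei (in %) in each claudin class, with 1 point per library, 1-kidney left of 2-kidney, and the mean ± SD (n = 3 and 4). Cldn10-only nuclei lay between 18.7% and 31.1% in 1-kidney and between 37.6% and 44.6% in 2-kidney libraries, and double-negative nuclei lay the other way round.

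Depth and the level of Cldn10 elsewhere moved with this share. Thick limb nuclei had median depths of 905.5, 1279 and 1319 UMIs in 1-kidney and 1449, 1591.5, 1397.5 and 1806 in 2-kidney libraries (exact permutation p = 0.0286). With every nucleus thinned to 1500 UMIs and shallower ones left out, the share was 20.6%, 31.2% and 30.2% in 1-kidney and 44.9%, 36.4%, 36.6% and 37.6% in 2-kidney libraries, which did not overlap either (exact permutation p = 0.0286). Thinning left 60, 116 and 203 thick limb nuclei in 1-kidney and 222, 437, 311 and 516 in 2-kidney libraries. Nuclei with 2 or more Cldn10 UMIs were 4.39%, 8.71% and 10.6% of the thick limb in 1-kidney and 21.4%, 15.9%, 15.9% and 18.1% in 2-kidney libraries. Cldn10 was also lower in the 1-kidney group over all retained nuclei, at 2.00, 2.91 and 2.37 per 10000 UMIs against 4.62, 3.60, 5.23 and 4.16 in 2-kidney libraries (exact permutation p = 0.0286). In proximal tubule nuclei the means were 3.02 ± 0.711 per 10000 (SD, n = 3) in 1-kidney and 6.19 ± 1.15 (SD, n = 4) in 2-kidney libraries (exact permutation p = 0.0571). In distal convoluted nuclei the level was 1.05, 1.53 and 0.927 per 10000 in 1-kidney and 2.56, 1.59, 1.57 and 1.63 in 2-kidney libraries, again without overlap (exact permutation p = 0.0286). Endothelial (exact permutation p = 0.286), intercalated (p = 0.514, exact permutation) and podocyte nuclei (p = 0.257, exact permutation) overlapped. The part of free Cldn10 RNA in the share was not tested. Within set P1117 the difference was -15.7 points (3 against 2 libraries, exact permutation p = 0.1, the smallest possible). As a share of all retained nuclei, Cldn10-only nuclei were 2.84%, 2.45% and 3.69% in 1-kidney and 5.30%, 7.49%, 4.53% and 5.65% in 2-kidney libraries (exact permutation p = 0.0571).

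The second comparison set Cldn10-only against Cldn16-only nuclei of the same library. Cldn10-only nuclei were lower in 6 of 8 tested genes of the cortical limb and in 3 of 9 tested genes of calcium and magnesium handling. Casr and Tmem207 count in both lists. The lists were drawn up with earlier results of these data known, so these counts are descriptions. Genes of a bicarbonate transporter (Slc4a7) and a prostaglandin receptor (Ptger3) were higher. Counts were summed per library and class and tested with edgeR's quasi-likelihood test, with the library as a block, in the 5 libraries with at least 20 Cldn16-only nuclei: 1-kidney replicates 2 and 3 and 2-kidney replicates 2, 3 and 4. At an adjusted p under 0.05, 232 of 5248 genes were called (4.42%), 107 of them higher (2.04%) and 125 lower (2.38%) in Cldn10-only nuclei. With 1 of the libraries left out, 88 to 286 genes were called, with 125, 105 and 88 without 2-kidney replicates 2, 3 and 4. In all 5 of these fits 17 of the 107 higher and 47 of the 125 lower genes were called. DESeq2 called 80 genes, 19 higher and 61 lower. The 2 1-kidney libraries alone gave 8 of 2810 genes tested, all of them lower. The 2-kidney libraries alone gave 279 of 6442, with 123 higher and 156 lower.

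Casr, the calcium-sensing receptor of the basolateral membrane, was at 279 and 73.3 CPM in the 1-kidney and 145, 274 and 176 CPM in the 2-kidney Cldn10-only sums. In Cldn16-only sums it was at 751 and 399 CPM in 1-kidney and 713, 1487 and 875.5 CPM in 2-kidney libraries. All 5 Cldn10-only values lay below all 5 Cldn16-only values, with a log2 difference of -2.23 ± 0.13 (SE; edgeR adjusted p = 2.2e-23). Tmem207, a small membrane protein gene listed here with divalent cation transport and the cortical limb, was at 879, 638, 487, 452 and 589 CPM in Cldn10-only and 2699, 2655, 3520, 3402 and 3447 CPM in Cldn16-only sums of the same libraries. It also did not overlap, at -2.46 ± 0.14 (SE; edgeR adjusted p = 2.41e-11). Egf, which encodes the epidermal growth factor precursor made by the distal nephron and acts on magnesium uptake downstream, averaged 107 ± 34.1 CPM in Cldn10-only and 294 ± 56.8 CPM in Cldn16-only sums (SD, n = 5), a log2 difference of -1.49 ± 0.19 (SE; edgeR adjusted p = 3.54e-09). Of the 15 listed genes of divalent cation handling, 9 were tested, and these 3 were lower and none was higher. Pth1r, the parathyroid hormone receptor (-0.36 ± 0.14, SE), and Cnnm2, a basolateral magnesium protein gene (-0.09 ± 0.18, SE), were not called.

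Enox1 was at 389, 305, 272, 568 and 430 CPM in Cldn10-only and 1157, 893, 1256, 2770 and 1842 CPM in Cldn16-only sums, which did not overlap. It was 0.244 times as high (log2 -2.04 ± 0.11, SE; edgeR adjusted p = 1.55e-25) and had the smallest p of the comparison. The list of cortical limb genes held 11 symbols, of which 8 were tested, 6 were lower and 1 was higher, with a median log2 difference of -1.93 beside 0.01 over all genes tested. Besides Casr, Tmem207 and Enox1 the lower ones were Tmem52b (-2.44), Kcnj10 (-1.83), which encodes a basolateral potassium channel, and Jag1 (-1.72), a ligand of the Notch receptors. Prox1, a homeobox gene placed on the same list, went the other way: it was at 94.8, 100.8, 213, 221 and 159 CPM in Cldn10-only and 60.9, 94.0, 89.1, 80.2 and 85.5 CPM in Cldn16-only sums (log2 1.04 ± 0.23, SE; edgeR adjusted p = 0.00159). The list was drawn up with earlier results of these data known, and its count is a description.

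Double-positive nuclei, 4 to 68 in a library, lay between the classes in the mean levels over the 7 libraries. Casr averaged 1.94 ± 0.80 per 10000 UMIs in Cldn10-only, 5.29 ± 2.67 in double-positive and 8.30 ± 3.47 in Cldn16-only nuclei (SD, n = 7), and Tmem207 averaged 5.94 ± 1.41, 14.7 ± 4.61 and 30.8 ± 5.13 in these classes (SD, n = 7). Tmem207 lay between the classes in each library, whereas Casr in 1-kidney replicates 1 and 2 was at 8.17 and 9.13 per 10000 UMIs in double-positive and 5.57 and 7.61 in Cldn16-only nuclei. The differences of double-positive nuclei were not tested. A Casr UMI was found in 22.8% ± 6.99 of Cldn10-only and 53.8% ± 14.6 of Cldn16-only nuclei (SD, n = 7), whose median depths were 1060.5 to 1940 and 1357 to 2126 UMIs.

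**Figure D3:**
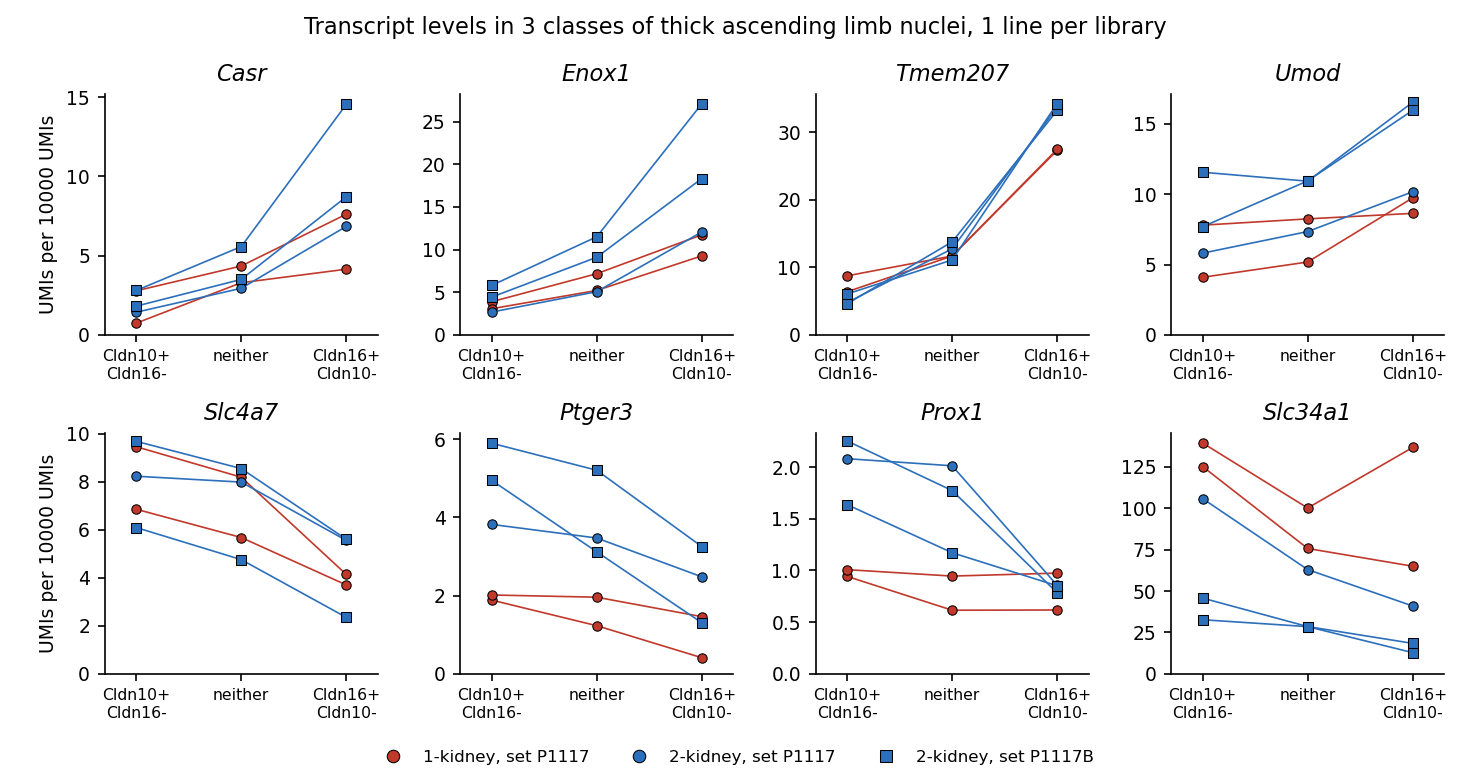
Levels of 8 genes, as UMIs per 10000 UMIs, in Cldn10-only (Cldn10+ Cldn16-), double-negative (neither) and Cldn16-only (Cldn16+ Cldn10-) nuclei, with 1 line for each of 5 libraries. Casr, Enox1 and Tmem207 were lowest in Cldn10-only nuclei of every library, Slc4a7 and Ptger3 were lowest in Cldn16-only nuclei, and Slc34a1 was highest in Cldn10-only nuclei.

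Among the genes of salt transport, 13 of 15 were tested, and 3 were lower. Fxyd2, a regulator of ion transport of the FXYD family, was one of them, at 282 ± 156 CPM in Cldn10-only and 526 ± 389 CPM in Cldn16-only sums (SD, n = 5; log2 -0.89), and Kcnj10 was another. Slc4a7, a sodium bicarbonate cotransporter, was the gene of the list that was higher. It stood at 690, 947, 841, 598 and 943 CPM in Cldn10-only and 365, 399, 579, 240 and 564 CPM in Cldn16-only sums. The classes did not overlap, at log2 0.87 ± 0.13 (SE; edgeR adjusted p = 5.8e-07). A related sodium-coupled bicarbonate transporter, Slc4a10, averaged 127 ± 43.4 CPM in Cldn10-only and 39.6 ± 6.79 CPM in Cldn16-only sums (SD, n = 5; log2 1.75 ± 0.30, SE). The 9 others were not called. Kcnj1, the apical potassium channel ROMK, averaged 259 ± 44.2 CPM in Cldn10-only and 233 ± 119 CPM in Cldn16-only sums (SD, n = 5; log2 0.10 ± 0.17, SE).

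Of the regulators of NKCC2, 12 of 14 were tested and 3 were lower. Umod, whose product also promotes NKCC2 activity, was at 784, 409, 593, 1135 and 749 CPM in Cldn10-only and 852, 940.0, 1060, 1692 and 1605 CPM in Cldn16-only sums. It was lower in Cldn10-only nuclei of each library, while the ranges overlapped (log2 -0.79 ± 0.11, SE; edgeR adjusted p = 1.53e-07). Ppp1r1a, a protein phosphatase inhibitor gene, differed by -0.66 ± 0.17 (SE). Wnk1, a kinase at the head of the pathway that activates NKCC2, averaged 1008 ± 274 CPM in Cldn10-only and 3314 CPM in Cldn16-only sums, and its adjusted p of 0.0499 (edgeR, log2 -1.75 ± 0.29, SE) lay at the threshold. Wnk1 is also one of the 5 distal convoluted markers given above, of which 4 were tested and Wnk1 alone was called. The part of distal RNA in its difference was not tested. Stk39, the kinase SPAK that acts directly on NKCC2, differed by -0.01 ± 0.10 (SE) and was not called. Of 12 general thick limb markers 6 were lower and none was higher. Among those lower were Umod, Egf, Casr and Ppp1r1a, and also Tfcp2l1, a transcription factor gene of the distal nephron (log2 -0.51 ± 0.14, SE). Esrrg, which encodes an oestrogen-related receptor (0.20 ± 0.09, SE), and Cdh16, kidney cadherin (-0.23 ± 0.17, SE), were not called.

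Ptger3 encodes the EP3 receptor, through which prostaglandin E2 lowers cAMP and salt reabsorption in the medullary limb. It stood at 190 and 202 CPM in 1-kidney and 390.1, 485 and 574 CPM in 2-kidney Cldn10-only sums, against 40.6 and 141 CPM in 1-kidney and 258, 134 and 327 CPM in 2-kidney Cldn16-only sums. It was higher in Cldn10-only nuclei of every library, with overlapping ranges (log2 1.00 ± 0.17, SE; edgeR adjusted p = 1.54e-05). Ptger3 was the gene called among the 4 tested genes of the medullary limb list, which held 10, and the list's median was 0.23. Of the hormone and cAMP genes, 14 of 25 were tested, and besides Ptger3 the phosphodiesterase gene Pde7b was called, at 1834 ± 228 CPM in Cldn10-only and 3031 ± 825 CPM in Cldn16-only sums (SD, n = 5; log2 -0.72 ± 0.10, SE).

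Of the developmental transcription factors and Notch genes, 21 of 34 were tested, and 1 was higher and 3 lower. Irx1, an Iroquois homeobox gene of the nephron's middle segments, was higher (log2 1.30 ± 0.38, SE), and Mecom, a zinc finger factor gene, was lower with Tfcp2l1 and Jag1 (391 ± 44.1 CPM in Cldn10-only and 659.5 ± 103 CPM in Cldn16-only sums, SD, n = 5; log2 -0.78 ± 0.12, SE). Of the growth factor and receptor genes, 23 of 36 were tested. Igf1, insulin-like growth factor 1 (1.23 ± 0.29, SE), and the insulin receptor substrate gene Irs1 (0.82 ± 0.26, SE) were higher, and Fgf9, a fibroblast growth factor, was lower (-0.64 ± 0.13, SE). Among 11 tested glucocorticoid genes Errfi1, a feedback inhibitor of EGF receptors, was higher (0.43 ± 0.12, SE), whereas Nr3c2, the mineralocorticoid receptor (-0.40 ± 0.11, SE), and Fkbp5, a chaperone gene induced by glucocorticoids (-0.51 ± 0.15, SE), were lower. None of 26 nuclear genes of the respiratory chain, 19 of fatty acid oxidation or 15 of the unfolded protein response was called. Of 9 tested tight junction genes, the claudins of the rule left out, Cgnl1, which encodes paracingulin, was called (-0.30 ± 0.08, SE).

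Other genes lower in Cldn10-only nuclei by the rule for large differences were Fut9, a fucosyltransferase gene (93.1 ± 59.5 CPM in Cldn10-only and 586 ± 262 CPM in Cldn16-only sums, SD, n = 5; log2 -2.57), Adamts19 (-3.44), Cemip (-2.06), Cwh43 (-1.95), Stox1 (-1.82), Mef2c (-1.67), Hecw2 (-1.66) and Cyp2s1 (-1.56). Those higher included Trpm3, a cation channel gene (1.95), Cnksr1 (1.95), Gfod1 (1.77), Map3k21 (1.64), Csad (1.40), Ndrg4 (1.26), Il34, a cytokine gene (121 ± 44.5 CPM in Cldn10-only and 48.4 ± 7.03 CPM in Cldn16-only sums, SD, n = 5), Cbs (1.23), Mras (1.23) and Lig4 (1.22). Mki67 and Cenpf, which mark dividing cells, were also called higher and rest on few counts. Mki67 had 8, 28, 66, 11 and 26 UMIs in Cldn10-only and 2, 0, 0, 0 and 1 in Cldn16-only nuclei of the 5 libraries, and Cenpf had 13, 31, 74, 44 and 31 UMIs against 0, 0, 2, 0 and 3. The Cldn10-only sums were larger, with 191032, 327557, 759118, 497144 and 769972 UMIs in total against 48613, 41068, 116932, 114826 and 199740. In 1-kidney replicate 2, 5.61% of Cldn10-only and 9.09% of Cldn16-only nuclei had an Mki67 UMI. In the other libraries of this comparison the Cldn10-only share was the higher. Against double-negative nuclei neither gene was called (adjusted p = 0.437 for Mki67 and 0.697 for Cenpf, edgeR). Mki67 was at log2 4.29 without 1-kidney replicate 2 and Cenpf at 3.72 without 2-kidney replicate 4, against 2.95 and 2.81 with all 5 libraries.

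Several calls of this comparison were lost when 1 library was left out, with the direction kept and adjusted p of 0.054 to 0.405 as the highest for each gene (edgeR). Without 2-kidney replicate 3 this held for Prox1, Cnksr1 and Adamts19, which was then at -2.76, and without 2-kidney replicate 4 for Igf1, Cubn and Mras, which was then at 0.75. Trpm3 and Il34 were lost without 2-kidney replicate 2 or 3, and Cbs and Slc5a2 without 2-kidney replicate 3 or 4. Without any 1 of 2-kidney replicates 2, 3 and 4, Errfi1, Irs1, Lig4, Nr3c2, Ppp1r1a and Tfcp2l1 were lost, and so were Csad and Irx1, Csad also without 1-kidney replicate 2 and Irx1 without 1-kidney replicate 3. Wnk1 and Cgnl1 were lost without 1-kidney replicate 3 and 2-kidney replicates 2 and 4, Fkbp5 without 1-kidney replicate 3 and 2-kidney replicates 3 and 4, and Cyp2s1 without 1-kidney replicate 3 and 2-kidney replicate 3, each left out alone. Slc5a2 was at 2.07 without 1-kidney replicate 2. Casr, Tmem207, Enox1, Tmem52b, Kcnj10, Jag1, Egf, Umod, Fut9, Slc4a7, Slc4a10, Ptger3 and Lrp2 were called in all 5 fits.

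Proximal transcripts moved with the higher genes. All 15 proximal markers were above 0 in this comparison and 7 were called higher, with a median log2 difference of 0.68. They included Lrp2, megalin (1324 ± 319 CPM in Cldn10-only and 906 ± 415 CPM in Cldn16-only sums, SD, n = 5; log2 0.63 ± 0.11, SE), Cubn, cubilin (0.76 ± 0.17, SE), and Slc5a2, the glucose transporter SGLT2 (1.49 ± 0.34, SE). Summed, the 15 markers were at 194 and 176 per 10000 UMIs in 1-kidney and 146, 84.0 and 61.4 in 2-kidney Cldn10-only nuclei. In Cldn16-only nuclei they were at 194 and 105 in 1-kidney and 61.7, 38.2 and 29.6 in 2-kidney libraries. Of the 107 higher genes, 53 (49.5%) were at least 2-fold higher in proximal nuclei than in double-negative thick limb nuclei, against 1 of the 125 lower genes (0.8%) and 429 of all 5248 tested (8.17%). Slc4a7, Ptger3, Prox1, Slc4a10 and Irx1 were not among the 53: in proximal nuclei they were at 0.0498, 0.0993, 0.0679, 0.0449 and 0.0995 times their level in double-negative nuclei. Lrp2, Cubn, Slc5a2, Il34 (2.86 times) and Errfi1 (2.48 times) were among the 53. The part of proximal RNA in the other higher genes was not tested. In set P1117B alone, where proximal transcripts were lowest, 258 of 5967 genes were called, with Casr at -2.37, Tmem207 at -2.71, Umod at -0.85 and Ptger3 at 1.13.

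**Figure D4:**
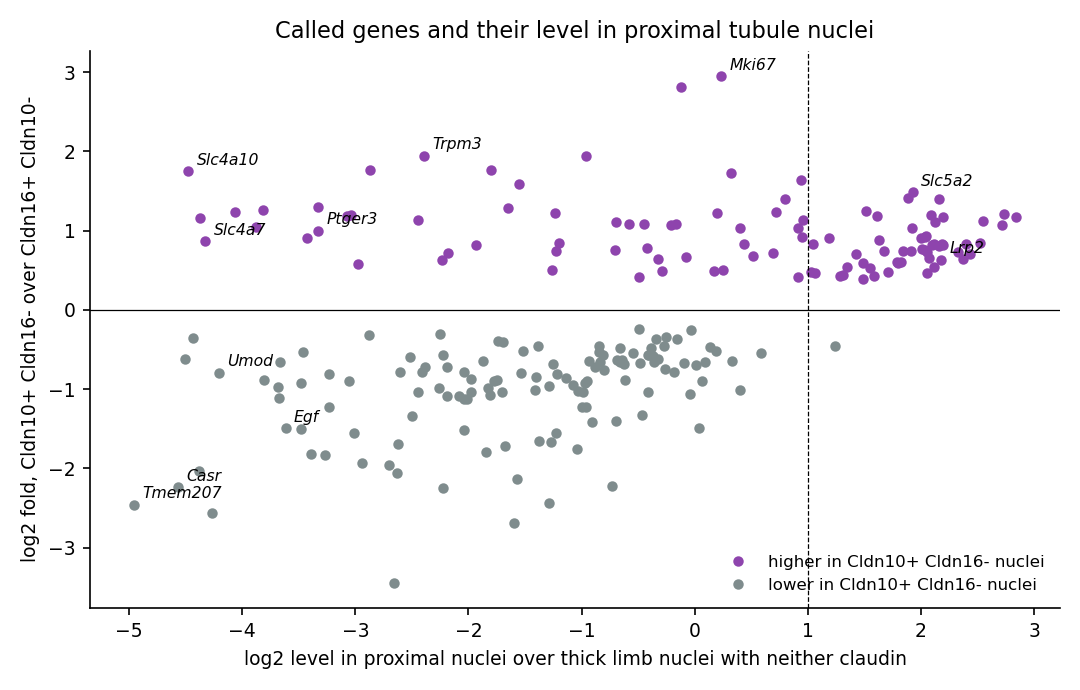
Genes called between Cldn10-only and Cldn16-only nuclei. The x axis is the log2 ratio of the level in proximal tubule nuclei over double-negative thick limb nuclei, the y axis the log2 fold of Cldn10-only over Cldn16-only nuclei, and the dashed line marks a 2-fold proximal excess. To the right of it lie 53 of the 107 higher and 1 of the 125 lower genes.

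Set against the 2037 double-negative nuclei, in all 7 libraries, 135 of 8182 genes were called (1.65%), 75 higher (0.917%) and 60 lower (0.733%) in Cldn10-only nuclei, and 768 (9.39%) had an unadjusted p under 0.05. This comparison was added after the data had been seen. The lower genes again included cortical limb genes, with smaller differences. Casr averaged 194 ± 80.3 CPM in Cldn10-only and 389 ± 86.1 CPM in double-negative sums (SD, n = 7; log2 -0.99 ± 0.08, SE), lower in 7 of 7 libraries. Tmem207 averaged 595 ± 143 CPM in Cldn10-only and 1285 ± 271 CPM in double-negative sums (SD, n = 7; log2 -1.10 ± 0.10, SE), also lower in 7 of 7. Enox1 (-0.89), Fut9 (-1.41), Wnk1 (-0.73) and Kcnj10 (-0.74) were lower as well, and of 10 tested cortical limb genes 6 were called, all of them lower. That list was drawn up with earlier results of these data known, so its count is a description here too. Ptger3 was higher (log2 0.31 ± 0.08, SE; edgeR adjusted p = 0.00768) in 7 of 7 libraries, and Umod was lower by a small amount (-0.21 ± 0.06, SE; edgeR adjusted p = 0.0357). Egf (-0.23), Slc4a7 (0.17) and Prox1 (0.29) were not called. Of the 75 higher genes, 66 (88%) were at least 2-fold higher in proximal nuclei than in Cldn16-only nuclei, against 12.4% of all genes tested. Slc34a1 led them, at 9961 CPM in Cldn10-only and 6380 CPM in double-negative sums (log2 0.62 ± 0.04, SE). Among the 9 others were Ptger3, the nuclear receptor gene Esrrb (0.46 ± 0.13, SE), the netrin receptor gene Unc5d (0.65 ± 0.18, SE) and Igfbp5, which binds insulin-like growth factors (0.38 ± 0.09, SE). Thinned to 1500 UMIs, 40 genes were called, and without the library as a block 1. With each of the 7 libraries left out in turn, 26 of the 75 higher and 15 of the 60 lower genes were called in every fit. Tmem207 was not called without 2-kidney replicate 1 (edgeR adjusted p = 0.0532), Kcnj10 without 2-kidney replicate 2 (0.129), Ptger3 without 2-kidney replicate 3 (0.353) and Igfbp5 without 2-kidney replicate 4 (0.329). Umod was lost without 1-kidney replicate 3 and 2-kidney replicates 2 and 4, each alone, Esrrb without any 1 of these or 2-kidney replicate 3, and Unc5d without 2-kidney replicate 1 or 4.

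The third comparison asked what differed between 1-kidney and 2-kidney animals within Cldn10-only nuclei. No gene passed the test. edgeR called 0 of 7139 genes (0%), and 679 (9.51%) had an unadjusted p under 0.05. DESeq2 called 1, Cyp4a8. In 788 genes (11%) the libraries of the groups did not overlap, 366 with 1-kidney above (5.13%) and 422 with 1-kidney below (5.91%). On simulated counts of this design, the test found 35% of genes changed 2-fold and 88% of those changed 4-fold. The simulation gave all genes the same spread between libraries and left out the library sets, so the rates in these data may differ. Without 2-kidney replicate 1, 20 genes were called, and without 2-kidney replicate 2 there were 2. The values below are therefore descriptions of genes with the smallest p in each direction and of genes known from the thick limb. The former were taken only from the 788 genes without overlap, so their separation was set by the choice.

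Smad6, an inhibitor of bone morphogenetic protein signalling, was at 60.9, 58.5 and 57.9 CPM in 1-kidney and 120, 128, 188 and 162 CPM in 2-kidney Cldn10-only sums (log2 -1.35 ± 0.29, SE; edgeR adjusted p = 0.22). Irs1, which passes on the insulin signal, was at 36.5, 37.2 and 64.0 CPM in 1-kidney and 135, 96.3, 182 and 159 CPM in 2-kidney sums (-1.50 ± 0.33, SE; edgeR adjusted p = 0.22). Both genes were taken from those without overlap between the groups. Ephb2, an ephrin receptor gene, was at 170, 149 and 259 CPM in 1-kidney and 330, 360, 561 and 400 CPM in 2-kidney sums (-1.04 ± 0.26, SE; edgeR adjusted p = 0.234). Sema6d, a semaphorin gene, was at 85.2, 128 and 51.8 CPM in 1-kidney and 169, 140, 216 and 143 CPM in 2-kidney sums (-0.98 ± 0.31, SE; edgeR adjusted p = 0.381). Neither overlapped between the groups. Others of this direction were Mfsd4a, a sugar transporter gene of the thick limb (79.1 ± 5.99 CPM in 1-kidney and 186 ± 38.0 CPM in 2-kidney sums, SD, n = 3 and 4; log2 -1.21), Ntn4, a netrin gene (-1.28), Pcsk6, a proprotein convertase gene (-0.97), Klhl14 (-1.37), Sh3bp5 (-1.07), Skap1 (-0.97), Man1c1 (-0.95) and Fut9 (-1.54).

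Ptger3 was at 207, 191 and 201 CPM in 1-kidney and 212, 388, 488 and 585 CPM in 2-kidney sums (log2 -1.08 ± 0.29, SE; edgeR adjusted p = 0.308). The groups were apart by little, since 2-kidney replicate 1 lay next to the 1-kidney values, and within set P1117 the difference was -0.63 ± 0.24 (SE). Umod was at 487, 792 and 409 CPM in 1-kidney and 590, 590, 1140 and 763 CPM in 2-kidney sums, and the groups overlapped (-0.45 ± 0.27, SE; edgeR adjusted p = 0.612; -0.08 within set P1117). Egf averaged 153 ± 60.1 CPM in 1-kidney and 97.3 ± 16.5 CPM in 2-kidney sums (SD, n = 3 and 4; 0.52 ± 0.29, SE), and Kcnj1 averaged 253 ± 27.2 CPM in 1-kidney and 258 ± 46.0 CPM in 2-kidney sums (-0.01 ± 0.22, SE). Casr overlapped, at 167 ± 106 CPM in 1-kidney and 214 ± 62.0 CPM in 2-kidney sums (SD, n = 3 and 4).

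Cyp4a8, a fatty acid hydroxylase gene of a multigene family whose reads may be shared between copies, was at 280, 276 and 326 CPM in 1-kidney and 96.5, 156, 107 and 125 CPM in 2-kidney sums. Cyp4a8, also taken from the genes without overlap, had the smallest p of the comparison (log2 1.28 ± 0.22, SE; edgeR adjusted p = 0.106). Txnip, an inhibitor of thioredoxin that responds to glucose, was at 621, 627 and 772 CPM in 1-kidney and 264, 451, 228 and 374 CPM in 2-kidney sums (1.04 ± 0.24, SE; edgeR adjusted p = 0.22). Slc5a12, a lactate transporter gene of the proximal tubule, was at 463, 356 and 342 CPM in 1-kidney and 219, 184, 194 and 187 CPM in 2-kidney sums (0.95 ± 0.20, SE; edgeR adjusted p = 0.22). Further genes of this direction were Col27a1, a fibrillar collagen gene (268 ± 110 CPM in 1-kidney and 50.9 ± 43.8 CPM in 2-kidney sums, SD, n = 3 and 4; log2 2.29), G6pc, glucose-6-phosphatase (1.45), Slc5a11 (1.30), Gldc (1.27), S100a13 (1.19), Resf1 (1.02) and Ppp1r16b (0.90). Col27a1 was at 3.06 without 2-kidney replicate 2 (edgeR adjusted p = 0.0129) and at 1.48 within set P1117. In proximal nuclei Cyp4a8, Slc5a12, G6pc, Slc5a11, Gldc and Ppp1r16b were at 3.40 to 4.28 times their level in double-negative nuclei, Txnip at 0.191 times and Col27a1 at 1.15 times. The summed proximal markers of Cldn10-only nuclei, at 153, 194 and 176 per 10000 UMIs in 1-kidney and 188, 146, 84.0 and 61.4 in 2-kidney libraries, overlapped between the groups, and their part in these 6 genes was not tested. Within set P1117, where those levels were nearest, Cyp4a8 differed by 1.19, Slc5a12 by 0.89, G6pc by 0.91, Smad6 by -1.10, Irs1 by -1.17 and Ephb2 by -0.78 on the log2 scale.

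**Figure D5:**
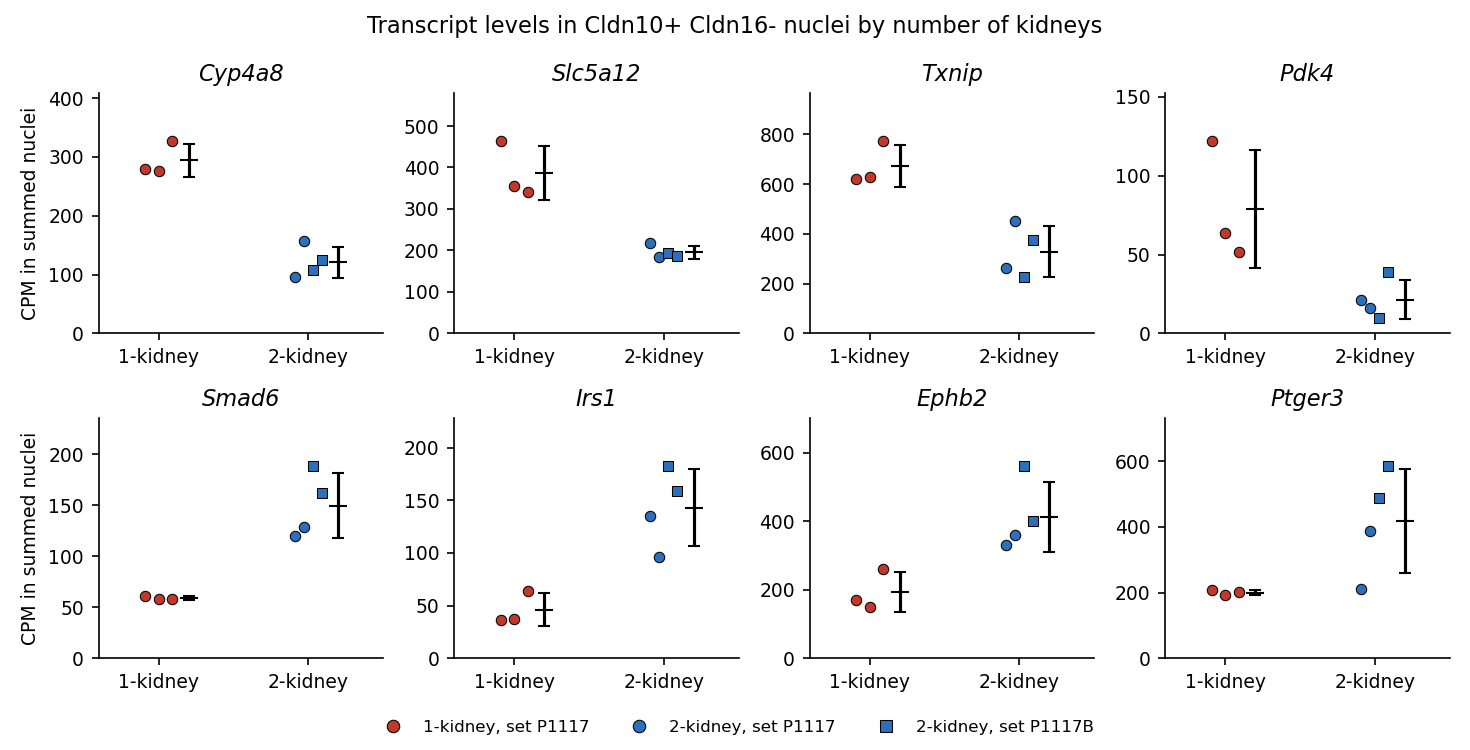
CPM of 8 genes in summed Cldn10-only nuclei, with 1 point per library, 1-kidney left of 2-kidney, and the mean ± SD (n = 3 and 4). Circles are set P1117 and squares set P1117B. The groups did not overlap in any of the 8 genes, and none passed the test. Cyp4a8, Slc5a12, Txnip, Smad6 and Irs1 were chosen from the genes without overlap.

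By list, the genes were read against 48.9% of all tested genes above 0 and a median log2 difference of -0.01. Over all tested genes the groups did not overlap in 11%, with 1-kidney above in 5.13% and below in 5.91%. Of the 16 tested glucocorticoid genes 15 were above 0 (median 0.46). In 3 of them the groups did not overlap, 2 with 1-kidney above and 1 with 1-kidney below, which was the 1 gene below 0. Pdk4, a kinase that holds back glucose oxidation, was at 122, 63.8 and 51.8 CPM in 1-kidney and 21.4, 16.04, 9.91 and 38.7 CPM in 2-kidney sums, without overlap (edgeR adjusted p = 0.308). It rested on 10, 12 and 17 UMIs in 1-kidney and 10, 12, 5 and 30 UMIs in 2-kidney libraries. Hsd11b1, which regenerates active glucocorticoid, was at 135 ± 2.37 CPM in 1-kidney and 74.7 ± 13.0 CPM in 2-kidney sums (SD, n = 3 and 4), and in proximal nuclei was higher than in double-negative ones. Fkbp5 overlapped widely, with 36.4 to 365 CPM among the 2-kidney libraries. Of 9 tested genes of cholesterol synthesis 1 was above 0 (median -0.81), and Srebf2, which encodes their main transcription factor, was at 71.3 ± 20.2 CPM in 1-kidney and 161 ± 35.1 CPM in 2-kidney sums (SD, n = 3 and 4; edgeR adjusted p = 0.275). Of 24 ephrin and semaphorin genes 5 were above 0 (median -0.35). In 5 the 1-kidney libraries lay below all 2-kidney libraries, against 5.91% of all genes tested. Developmental factor genes had 8 of 25 above 0 (median -0.19), with the paired-box genes Pax8 at -0.77 and Pax2 at -1.12. The regulators of NKCC2 had 3 of 13 above 0 (median -0.40), salt transport genes 4 of 14 (-0.28), thick limb markers 2 of 12 (-0.20), fatty acid oxidation 19 of 26 (0.21), unfolded protein response genes 12 of 17 (0.37) and respiratory chain genes 18 of 37 (-0.02). Of the 12 thick limb markers 1 did not overlap between the groups, against 11% of all genes tested. None of the genes on these lists passed the test. Proximal markers had 14 of 15 above 0 (median 0.42). Markers of connecting tubule and principal cells had 6 of 6 tested above 0 (median 0.63), 1 of them, Hsd11b2, also on the glucocorticoid list. Summed, the 8 listed were at 6.57 to 15.1 per 10000 UMIs in 1-kidney and 8.42 to 12.1 in 2-kidney Cldn10-only nuclei, and Fxyd4 was at 0 in 1-kidney replicates 1 and 3. The part of these transcripts in the lists was not tested.

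The same comparison over all thick limb nuclei, also added after the data had been seen and sharing these libraries and nuclei, called 0 of 8865 genes (0%; 1095, or 12.4%, at an unadjusted p under 0.05). For Smad6 the log2 difference was -1.35 in Cldn10-only and -0.97 in all thick limb nuclei, for Irs1 -1.50 and -1.26, for Ephb2 -1.04 and -1.04, for Sema6d -0.98 and -1.20, for Ptger3 -1.08 and -1.09, and for Cyp4a8 1.28 and 1.06.

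Whether the difference between 1-kidney and 2-kidney animals was itself different in Cldn10-only and Cldn16-only nuclei was tested as an interaction in the 5 libraries. edgeR called 0 of 5248 genes (0%; 339, or 6.46%, at an unadjusted p under 0.05), and DESeq2 called 0, with 94 at an unadjusted p under 0.05. On simulated counts this test found 13% of genes changed 2-fold and 45% of those changed 4-fold, with the same limits of the simulation. Tmem207 came nearest (0.92, edgeR adjusted p = 0.0552): in Cldn10-only sums it was at 879 and 638 CPM in 1-kidney and 487, 452 and 589 CPM in 2-kidney libraries, and in Cldn16-only sums at 2699 and 2655 CPM in 1-kidney and 3520, 3402 and 3447 CPM in 2-kidney libraries. Without 1-kidney replicate 3, 5 genes were called.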

How the data were processed

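Nuclei from 7 rat kidneys (3 1-kidney, 4 2-kidney) were captured with 10x Genomics 3' chemistry and sequenced as 1 pool, per the labels' protocols. For each barcode and each of 25399 genes the authors deposited a raw UMI count, a whole number without normalization. The submitters' processing notes name Cell Ranger 7.0. The sources used here give no genome build, and coordinates played no part. Members and gene lists were chosen with earlier results of these data known. Of 558 listed symbols 18 were not found in the feature tables.

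Counts were summed per library and class and tested with edgeR 4.0.16 in R 4.3.3 (TMM factors, filterByExpr, robust quasi-likelihood test, Benjamini-Hochberg adjustment over all genes tested, two-sided). The 5 genes of the rule stayed in the library sizes and were not tested within or between claudin classes. In the fit over all thick limb nuclei only Slc12a1, Nos1 and Pappa2 were held back. Cldn10 levels in all retained nuclei and in other cell classes were compared by permutation. Comparisons between classes had the library as a block and needed 20 nuclei in each sum, which 5 libraries had for Cldn16-only nuclei. Single values per library were compared with exact permutation tests in scipy 1.17.1. Intervals between libraries are SDs. CPM refer to the TMM-scaled library total, and levels per 10000 UMIs are unscaled. Thinned shares are the expected shares at 1500 or 800 UMIs. Gene tests on thinned counts used 1 random draw per nucleus, with the claudin classes set before thinning. Doublet scores came from Scrublet in scanpy 1.11.5. The automatic threshold marked at most 10 barcodes in a library, so the highest scores were removed at a rank of 0.8% per 1000 barcodes as an alternative, which took 36 members. A barcode over 10000 UMIs was left out, and 14 further members appeared without that limit.

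Genes named in the text were the 10 genes with the smallest p in each direction whose groups did not overlap (kidney number), the 15 called genes in each direction with the largest change at 50 CPM or more and the same sign in every library (classes), up to 4 members of each list by p, and Slc5a12, Sema6d, Ephb2, Umod, Egf, Kcnj1 and Ptger3. Some genes that the rule names are not reported here. Slc4a7, Prox1, Igfbp5, Esrrb, Unc5d, Casr by kidney number and the genes not called were added after their values were seen. Simulated counts, in which 100 genes were shifted 2-fold and 100 others 4-fold, served to test the scripts. They had the same spread between libraries for all genes and no library sets. In the comparison of Cldn10-only with Cldn16-only nuclei 69% and 91% were found. DESeq2 1.42.0 was an alternative.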

Additional observations from a re-analysis of the deposited data

How the results depend on the processing

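The share of Cldn10-only nuclei stayed lower in 1-kidney libraries under every alternative run. Its difference was -2.75 points (exact permutation p = 0.0571) with all retained nuclei as the denominator, -15.7 points within set P1117 (p = 0.1, exact permutation), and -16.4 to -10.1 points with 1 library left out, where p below 0.05 cannot be reached. No paired analysis was possible because the replicate numbers of the kidney groups follow the accession order and pair no animals. For kidney number in Cldn10-only nuclei, 1 gene was called by DESeq2, 39 without a filter on low counts, 1 with 2 or more Cldn10 UMIs, 3 with the library set as a term (Cyp4a8, Gldc and Col27a1) and 0 to 20 with 1 library left out. Of 234 alternative values of 26 named results, 216 kept direction and side of the threshold, 15 passed it in the same direction, and 3 changed sign: Kcnj1 was at 0.03 without 1-kidney replicate 1, at 0.02 without 1-kidney replicate 2 and at 0.11 without 2-kidney replicate 2, within a range of -0.13 to 0.11.

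For Cldn10-only against Cldn16-only nuclei, 80 genes were called by DESeq2, 33 without the replicate block (the library as a block), 109 after thinning to 1500 UMIs, 8 in the 1-kidney libraries alone and 88 to 286 with 1 library left out. Of 215 alternative values of 37 named results, 184 kept direction and side, 30 lost the threshold and 1 changed sign, Kcnj1 at -0.012 without 2-kidney replicate 4, within a range of -0.012 to 0.37. Against double-negative nuclei the counts were 40 after thinning to 1500 UMIs, 1 without the replicate block, 40 in set P1117B alone and 75 to 118 with 1 library left out. The interaction gave 0 to 5 calls with 1 library left out, and kidney number over all thick limb nuclei gave 10 within set P1117 and 0 to 10 with 1 library left out, 10 without 2-kidney replicate 1. The cause was not tested for these changes, except that thinning and single groups test fewer genes or libraries. Depth limits the 1-kidney sums most, since 1 UMI there stood for up to 12.2 CPM.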
